A study of Mus musculus with 28 samples.

Results

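The liver transcripts of 10 genes of the apoB lipoprotein pathway were compared between Mif-2-/-Apoe-/- mice and Apoe-/- mice, both fed a high-fat diet. The members were taken by gene symbol, 10 of the 36072 symbols in the count files. The rule uses no measured value, but the genes were chosen with earlier results of these data known. They are Apob, Mttp and Tm6sf2, which build the particle, Sort1, which sorts it, Apoe, Apoc1, Apoc2, Apoc4 and Apoh, which ride on lipoproteins in plasma, and Lrp1, which takes up their remnants. None of the 10 transcripts passed the test between the groups. In the reported fit each fold change had a 95% interval inside a 2-fold difference in either direction, and 6 of the 10 intervals also lay inside 1.5-fold.

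The liver exports triglyceride and cholesteryl ester in very low-density lipoproteins, each built around apolipoprotein B. ApoB is lipidated as it enters the endoplasmic reticulum by microsomal triglyceride transfer protein, and chains that receive too little lipid are degraded in the cell. In plasma, lipoprotein lipase shrinks the particles to remnants, which hepatocytes clear through the LDL receptor, LRP1 and heparan sulphate proteoglycans, with apoE as the main ligand. Mice that lack Apoe therefore accumulate remnants in plasma.

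Livers came from 7 female Mif-2-/-Apoe-/- mice (double knockout mice in what follows) and from 7 female Apoe-/- mice. Per the methods of the study the mice were 8 weeks old when the diet, which held 0.21% cholesterol, began, and the labels give 12 weeks of it. The Apoe knockout was thus shared by both groups, the Mif-2 (Ddt) deletion was whole-body, and no mouse with an intact Apoe gene was analysed here. RNA was counted by prime-seq, which sequences the 3' part of transcripts and collapses copies by molecular identifier, in 2 libraries per mouse that were summed.

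Total counts were 1336787 to 2715022 per mouse, of which CT010467.1, a ribosomal RNA sequence, took 10.8 to 36.8%. Ddt, the gene that encodes MIF-2, averaged 4.92 ± 2.23 CPM (counts scaled to library size) in double knockout mice and 105 ± 23.2 CPM in Apoe-/- mice (SD, n = 7 each), with no overlap among the 14 mice. The 12 hepatocyte markers summed to 36166 to 86943 CPM in double knockout mice and 43150 to 80454 CPM in Apoe-/- mice, and the 13 macrophage and Kupffer cell markers to 679 to 1972 CPM in double knockout mice and 912 to 1561 CPM in Apoe-/- mice, with 1 of these, Timd4, called as higher. At an unadjusted edgeR p below 0.05, 4 of the 12 hepatocyte and 4 of the 13 macrophage and Kupffer cell markers were higher in double knockout mice. On both lists 0 were lower, and 12.9% of all genes passed this threshold in either direction. No marker on either list was at 0. Double knockout mouse 3 stood apart, with 10088 CPM of 10 skeletal muscle markers against 23.6 to 58.3 CPM in the other 6 double knockout mice and 28.6 to 45.1 CPM in Apoe-/- mice, so results that rest on this mouse are given without it as well. A list of early-response and nuclear transcripts that follow handling and RNA quality summed to 1222 to 3973 CPM in double knockout mice and 2225 to 6345 CPM in Apoe-/- mice, most of it Malat1. Of its 8 tested genes 6 were higher in double knockout mice at an unadjusted p below 0.05, and 1, Zfp36, was called. The part of these transcripts in the results was not tested.

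Over all genes, edgeR's quasi-likelihood test called 21 of 9684 genes (0.217%) at an adjusted p below 0.05. All 10 members passed the filter on low counts and 0 of them were called, with a lowest adjusted p of 0.489, for Apoe. At an unadjusted p below 0.05 the test picked 12.9% of all genes and again 0 of the 10 members, whose lowest p was 0.122. DESeq2 called 116 of the 3902 genes that it gave an adjusted p (2.97%) and also 0 members, with no adjusted p for Tm6sf2, Apoc2 and Sort1. The CPM of the groups did not overlap for 0.279% of all genes and for 0 members. Fold changes are given as log2 of double knockout over Apoe-/-. Of the members 7 were positive and 3 negative, with a median of 0.10 against 0.01 for all genes. The median absolute log2 fold change was 0.16 for the members and 0.19 for all genes, so the members lay no farther from 0 than the general run of genes.

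**Figure D1:**
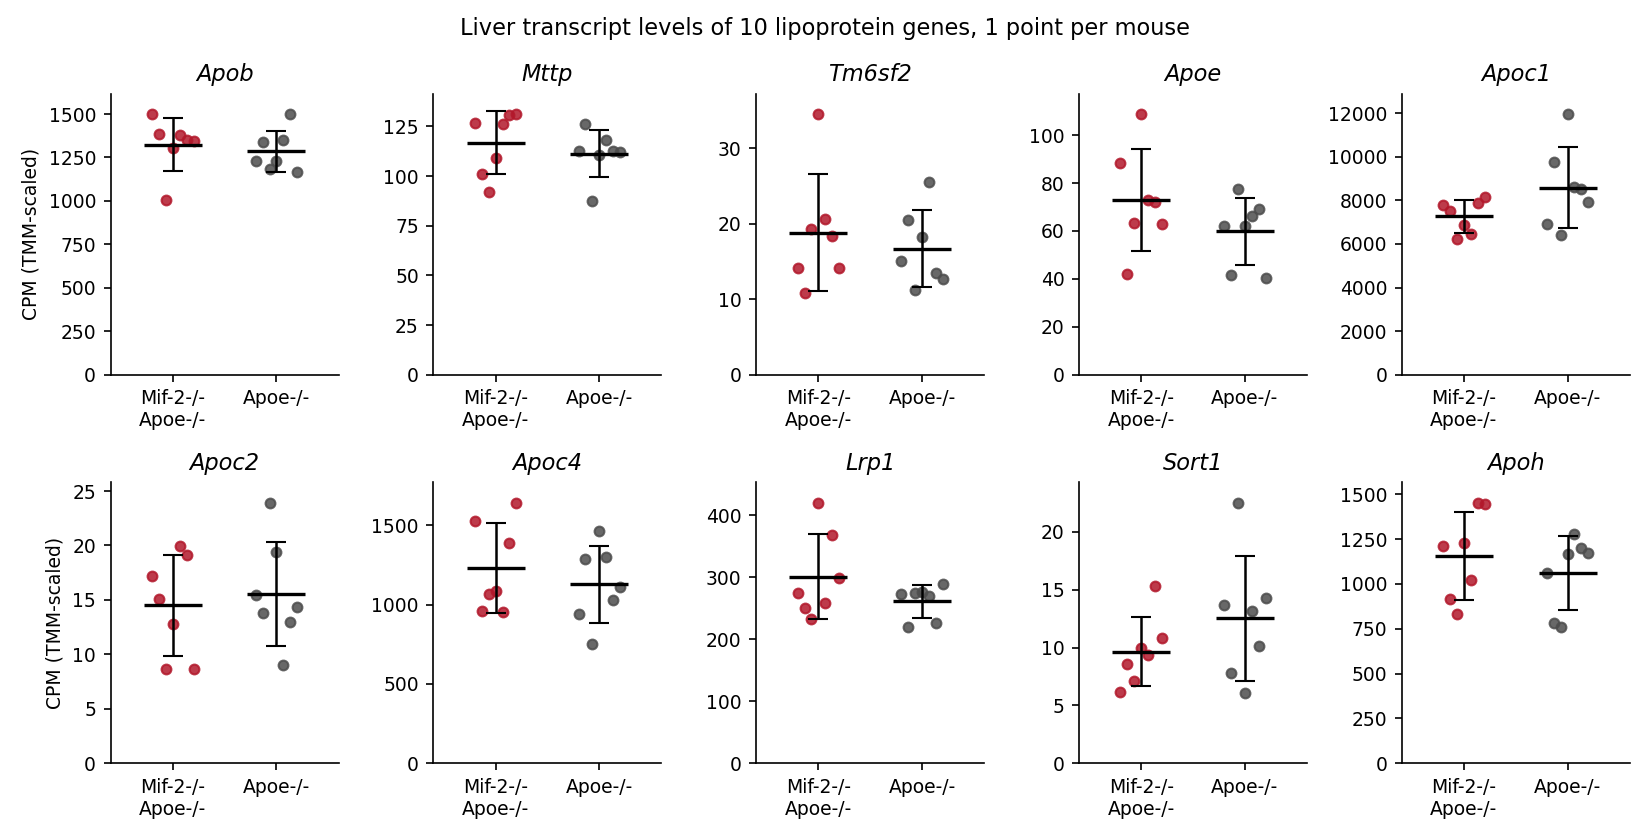
CPM scaled by TMM (a correction of library size) of each of the 10 genes, with 1 point per mouse, 7 Mif-2-/-Apoe-/- mice left and 7 Apoe-/- mice right in each panel. Bars show the mean and 1 SD, every axis starts at 0, and the groups overlap in all 10 panels.

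The first group of members assembles the particle. Apob (ENSMUSG00000020609.14, mm10 chromosome 12, 7977648 to 8016835, plus strand) encodes the structural protein that each particle keeps for life. It had 1004 CPM in the lowest double knockout mouse, a median of 1349 and 1498 in the highest, against 1168, 1231 and 1498 CPM in Apoe-/- mice. The ranges overlapped almost whole apart from double knockout mouse 3, the one with muscle transcripts, which was the lowest of all 14. The mean was 1324 ± 153 CPM in double knockout mice and 1285 ± 117 CPM in Apoe-/- mice (SD, n = 7 each). On the log2 scale the difference was 0.04 (SE 0.14; 95% interval -0.26 to 0.34; edgeR adjusted p = 0.922), and 0.10 without double knockout mouse 3. It was 0.014 without double knockout mouse 1, 0.024 when Apoe-/- mouse 3 was left out, 0.021 for mouse 7 of that group and 0.08 for its mouse 6. For Apob the 95% interval of this fit thus runs from 0.837-fold to 1.27-fold, and it was wider in some other fits (SE 0.23 with no gene filter). Here as for the genes below, fewer cells of a type and less RNA per cell cannot be told apart in bulk liver.

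Mttp (chromosome 3, 138089854 to 138144968, minus strand) encodes the lipid transfer subunit that loads apoB. Its levels were 91.8, 126 and 131 CPM (lowest, median, highest) in double knockout mice, against 87.2, 112 and 126 CPM in Apoe-/- mice. Although 4 of the 7 double knockout mice lay above every Apoe-/- mouse, the other 3 lay below the Apoe-/- mean. Its fold change was 0.07 on the log2 scale (SE 0.13; 95% interval -0.21 to 0.34; edgeR adjusted p = 0.858), and 0.12 without double knockout mouse 3. Leaving out double knockout mouse 6 or 7 gave 0.042 and 0.040, and leaving out Apoe-/- mouse 2 or 3 gave 0.10 and 0.018. With library totals in place of TMM factors, the signs of Apob (-0.076) and Mttp (-0.043) turned, as the median of all genes moved to -0.10 on that scale.

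Tm6sf2 (chromosome 8, 70072924 to 70080066, plus strand) encodes a membrane protein of the endoplasmic reticulum and Golgi through which apoB particles acquire bulk lipid. It had 10.8, 18.4 and 34.5 CPM in double knockout mice, against 11.3, 15.0 and 25.5 CPM in Apoe-/- mice, on only 10 to 97 counts per double knockout mouse and 16 to 68 counts per Apoe-/- mouse. The single high value was double knockout mouse 4, and the other 6 lay inside or at the edge of the Apoe-/- range. Its log2 fold change, 0.19 (SE 0.23; adjusted p = 0.746), became -0.050 without that mouse, and was 0.12 without Apoe-/- mouse 3 and 0.33 without Apoe-/- mouse 5. Sort1 (chromosome 3, 108284082 to 108361511, plus strand), for the Golgi sorting receptor sortilin that binds apoB, was read at 8 to 28 counts per double knockout mouse and 11 to 35 counts per Apoe-/- mouse.

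Sort1 showed 6.15, 9.37 and 15.3 CPM in double knockout mice, against 6.08, 13.1 and 22.5 CPM in Apoe-/- mice. The double knockout range lay inside that of Apoe-/- mice, yet 6 of the 7 double knockout mice were below the Apoe-/- mean of 12.5 ± 5.38 CPM, and their own mean was 9.62 ± 2.99 CPM. For Sort1 the log2 fold change, -0.36 (SE 0.26; 95% interval -0.90 to 0.18; adjusted p = 0.558), had the widest interval of the 10 members. It was -0.17 without Apoe-/- mouse 3, the highest for Sort1, so that mouse decided much of its size.

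RefSeq promoter windows of the GRCm38.p6 build were found for 7 of the 10 members. Apoc1, of the only pair that passed in the covariation between mice described below, had none. Apoh, which took part in the pairs next in order, had a window that held none of the motifs named here. The windows of Apob, Mttp and Apoc4, which also took part in the strongest pairs, are shown. Each runs from 250 bases before to 50 bases after the RefSeq start, 5' to 3' on the gene's strand, in lower case. Capitals mark every match, on either strand, to 4 short motifs. These are TATAAA, the core of the element that places the start site, CAAAGGTC, part of the direct repeat read by HNF4 and other nuclear receptors, CCAAT, bound by the factor NF-Y, and GGGCGG, the box bound by Sp1. The motifs do not overlap each other in these 3 windows. The Apob window is chr12:7977427-7977726, that of Mttp chr3:138143369-138143668 and that of Apoc4 chr7:19681411-19681710.
Apob: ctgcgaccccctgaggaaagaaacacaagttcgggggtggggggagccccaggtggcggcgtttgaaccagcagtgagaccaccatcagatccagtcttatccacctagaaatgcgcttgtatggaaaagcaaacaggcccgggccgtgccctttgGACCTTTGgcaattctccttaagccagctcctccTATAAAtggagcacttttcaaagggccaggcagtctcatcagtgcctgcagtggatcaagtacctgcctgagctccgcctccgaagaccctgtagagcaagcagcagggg
Mttp: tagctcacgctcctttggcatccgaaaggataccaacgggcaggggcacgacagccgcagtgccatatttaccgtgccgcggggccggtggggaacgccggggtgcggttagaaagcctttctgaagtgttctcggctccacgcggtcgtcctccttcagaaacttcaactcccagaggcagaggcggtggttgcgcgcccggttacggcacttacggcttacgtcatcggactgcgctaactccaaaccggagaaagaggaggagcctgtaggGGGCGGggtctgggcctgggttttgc
Apoc4: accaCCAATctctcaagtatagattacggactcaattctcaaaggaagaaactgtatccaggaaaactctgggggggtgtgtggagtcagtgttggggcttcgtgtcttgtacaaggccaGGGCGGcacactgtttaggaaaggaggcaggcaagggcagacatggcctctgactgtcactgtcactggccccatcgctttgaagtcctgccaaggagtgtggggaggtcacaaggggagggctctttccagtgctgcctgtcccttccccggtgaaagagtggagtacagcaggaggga

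The Apob window held TATAAA 60 bases before the RefSeq start, which is 31 bases before the GENCODE gene start, and the reverse of CAAAGGTC 94 bases before the RefSeq start. TATAAA occurred in 14.2% and CAAAGGTC in 1.19% of 27025 promoters of this length. The Mttp window held GGGCGG 24 bases after its start, and the GENCODE gene model of Mttp begins 1550 bases upstream of that start. The Apoc4 window held CCAAT 246 bases and GGGCGG 130 bases before its start. Over all promoters CCAAT occurred in 37.9% and GGGCGG in 35.9%. No motif of the set was found in all 3 windows.

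The second group of members lies side by side on chromosome 7, in a cluster read on the minus strand. Apoe (19696109 to 19699188) encodes the ligand for remnant uptake, but here every tag came from knockout alleles, and which part of the gene these lack is not given in the sources used here. Its tags reached 42.0, 72.0 and 109 CPM in double knockout mice, against 40.6, 62.2 and 77.4 CPM in Apoe-/- mice. The groups overlapped, with 2 double knockout mice above every Apoe-/- mouse. The mean was 72.9 ± 21.1 CPM in double knockout and 59.8 ± 13.9 CPM in Apoe-/- mice (SD, n = 7 each). In log2 terms the fold change was 0.30 (SE 0.19; 95% interval -0.09 to 0.68; adjusted p = 0.489), and 0.18 without double knockout mouse 4. These tags check no genotype label and measure no apoE protein.

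Apoc1 (19689481 to 19692660) encodes a small apolipoprotein that, in mice and humans, hinders lipases and remnant uptake. It had 6222, 7506 and 8136 CPM in double knockout mice, against 6398, 8501 and 11952 CPM in Apoe-/- mice. All 7 double knockout mice lay below the Apoe-/- mean, but the ranges overlapped, since 3 Apoe-/- mice lay within the double knockout range. The mean was 7268 ± 746 CPM in double knockout mice and 8585 ± 1862 CPM in Apoe-/- mice (SD, n = 7 each). Fitted by edgeR, the fold change was -0.24 in log2 (SE 0.18; 95% interval -0.62 to 0.14; adjusted p = 0.578), and -0.14 without Apoe-/- mouse 4, the highest.

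Apoc4 (19678083 to 19681479) encodes a minor apolipoprotein of very low-density lipoproteins. Its levels were 954, 1088 and 1641 CPM in double knockout mice, against 749, 1113 and 1464 CPM in Apoe-/- mice. The ranges overlapped. Its mean difference had the opposite sign to that of its neighbour Apoc1, at 0.13 in log2 (SE 0.18; 95% interval -0.25 to 0.51; adjusted p = 0.786), and neither passed the test. The Apoc4 value was 0.075 and 0.051 without double knockout mouse 1 or 7, and 0.052 and 0.21 without Apoe-/- mouse 3 or 4.

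Apoc2 (19671579 to 19677941) encodes the cofactor that lipoprotein lipase requires. It was read at only 14 to 36 counts per double knockout mouse and 18 to 37 counts per Apoe-/- mouse, that is 8.62, 15.1 and 20.0 CPM in double knockout and 9.01, 14.3 and 23.9 CPM in Apoe-/- mice. The ranges nearly coincided, and the log2 fold change was -0.10 (SE 0.23; 95% interval -0.58 to 0.38; adjusted p = 0.883). Over the fits that each left out 1 mouse it ranged from -0.21, without Apoe-/- mouse 5, to 0.022, without Apoe-/- mouse 3, and was 0.00084 without double knockout mouse 3. In the GENCODE annotation 646 of the 813 exonic bases of Apoc2 (79.5%), and 119 of 2537 of Apoc4, are shared with a readthrough gene on the same strand, Gm44805, which was not analysed here. The Apoc2 level is therefore uncertain.

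Lrp1 (chromosome 10, 127538161 to 127621148, minus strand) encodes the large endocytic receptor that takes up remnants beside the LDL receptor. It lies on the chromosome of Ddt, 51.8 Mb away. Its levels were 233, 275 and 420 CPM in double knockout mice, against 219, 274 and 289 CPM in Apoe-/- mice. The medians were nearly equal, and the higher mean of double knockout mice came from 3 mice above every Apoe-/- mouse, mouse 4 most of all. Its fold change in log2 was 0.20 (SE 0.15; 95% interval -0.11 to 0.52; adjusted p = 0.563), and 0.11 without double knockout mouse 4.

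Apoh (chromosome 11, 108343354 to 108414396, plus strand) encodes beta-2-glycoprotein I, a phospholipid-binding plasma protein found partly on lipoproteins. It had 834, 1212 and 1453 CPM in double knockout mice, against 762, 1169 and 1280 CPM in Apoe-/- mice. The ranges overlapped, and the log2 fold change was 0.13 (SE 0.18; 95% interval -0.24 to 0.49; adjusted p = 0.784). For Apoh it was 0.19 without double knockout mouse 3, 0.068 and 0.069 without double knockout mouse 6 or 7, and 0.067 and 0.061 without Apoe-/- mouse 2 or 3. Mttp, Lrp1, Sort1 and Apoh each overlap another annotated gene on the opposite strand. Whether counting used strand is not given in the sources used here, so their reads and those of these partners cannot be told apart. Sort1 and Apoh also overlap a gene on their own strand, Gm43099 and Gm11656, which strand use would not separate.

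**Figure D2:**
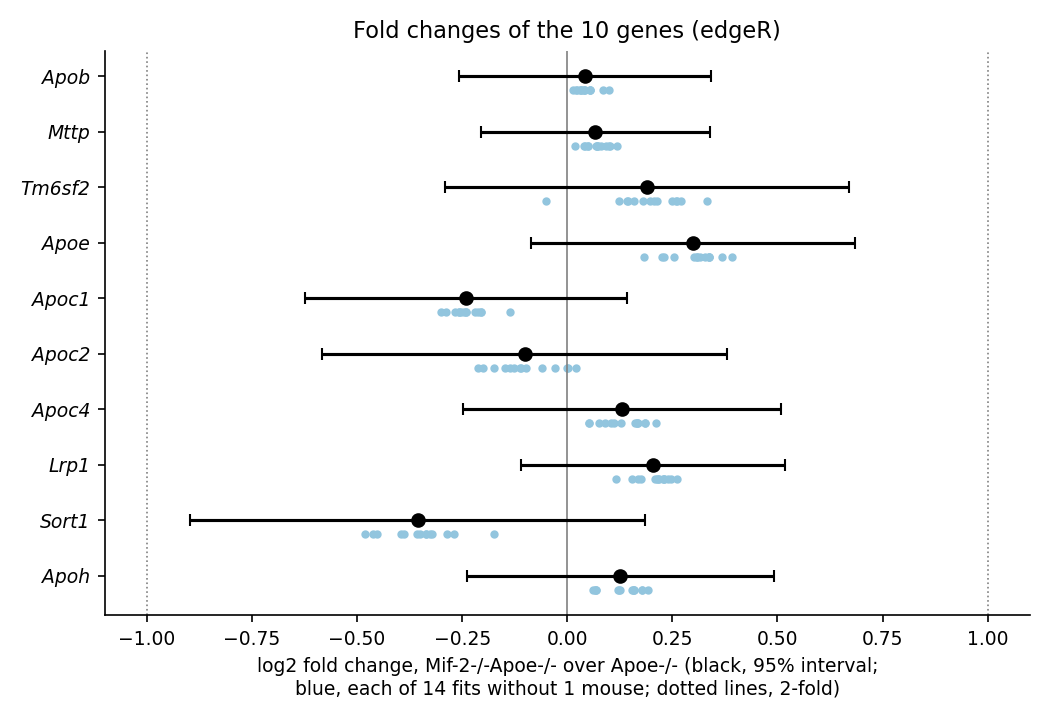
Log2 fold change of each gene, Mif-2-/-Apoe-/- over Apoe-/-, with its 95% interval (black, edgeR) and the values of the 14 fits that each left out 1 mouse (blue). All 10 intervals span 0 and stay inside the dotted lines at 2-fold, and the blue points of Tm6sf2 and Apoc2 lie on both sides of 0.

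How far these values could resolve a difference depended on the gene. The SD of log2 CPM between the 2 libraries of a mouse was 0.06 for Apoh, 0.07 for Apob, 0.09 for Apoc1, 0.09 for Lrp1 and 0.10 for Apoc4, against 0.31, 0.16, 0.24, 0.25 and 0.33 between mice of a group. For these 5 members most of the spread thus lay between mice, not between repeat libraries. The library SD is that of single libraries, and the SD between mice is that of the 2 libraries summed, where library noise is smaller. Similar values of the 2 SDs thus do not mean that mice did not differ. For Tm6sf2 the library SD of 0.47 was as large as that between mice, 0.45, and for Sort1 (0.44 and 0.48) and Apoc2 (0.38 and 0.44) it came close. Mttp (0.16 and 0.18) and Apoe (0.25 and 0.39) lay between.

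Next, the members were compared with each other across mice. Log2 CPM were centred within each group, so that a group difference could not enter, and all 45 pairs were correlated over 14 mice. Of the 45 values of Pearson's r 30 were positive, with a range of -0.61 to 0.82 and a median of 0.18. By permutation within groups 7 pairs had an unadjusted p below 0.05, and 1 pair passed adjustment over the 45.

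**Figure D3:**
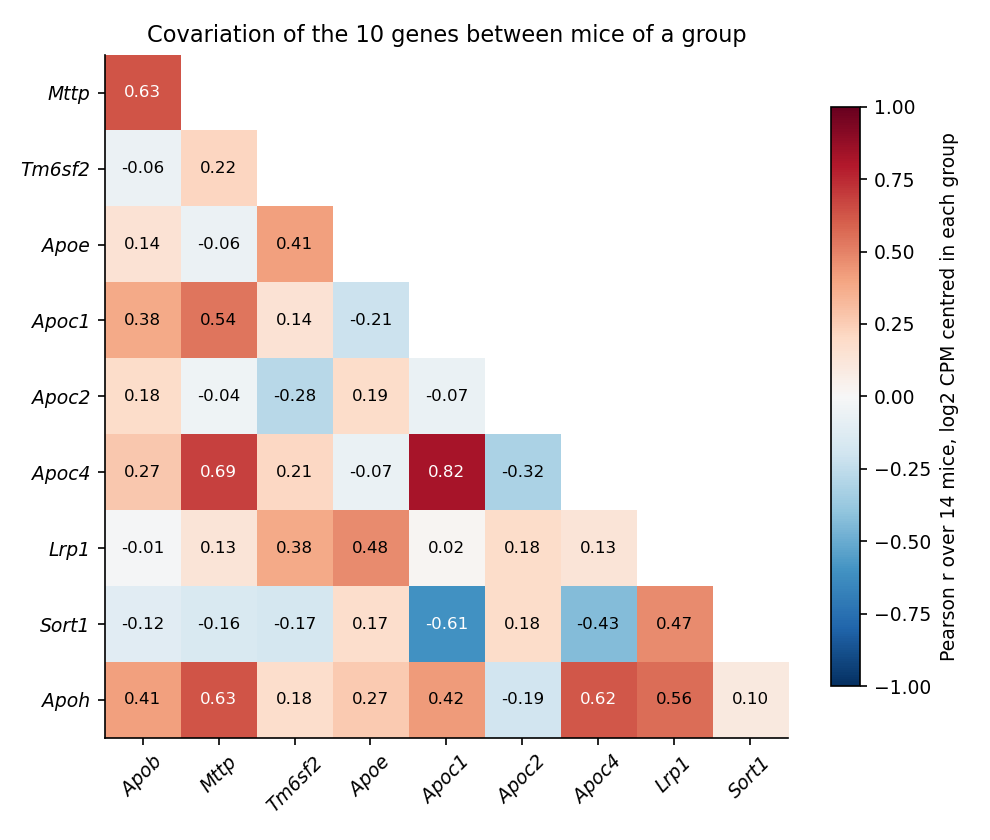
Pearson's r of log2 CPM, centred in each group, for each of the 45 pairs of the 10 genes over 14 mice (red positive, blue negative). The cell of Apoc1 and Apoc4 is the strongest at 0.82. Other warm cells include those of Mttp with Apob, Apoc1, Apoc4 and Apoh, and those of Apoh with Apoc4 and Lrp1.

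That pair was Apoc1 and Apoc4, with r = 0.82 (permutation p = 0.00038, adjusted p = 0.0171) and Spearman's rho of 0.81 (permutation p = 0.00097, adjusted p = 0.0437). It was 0.75 within double knockout mice and 0.92 within Apoe-/- mice, and 0.74 without the 2 mice farthest from the median of Apoc1. Mice with much Apoc1 were thus mice with much Apoc4 in both groups. The permutation adjusted p no longer passed without double knockout mouse 7 (0.0562) or without Apoe-/- mouse 1 (0.0517), 3 (0.0751) or 4 (0.0684), with r of 0.75 to 0.82 in these 4 sets. With Apoc1 read in one library of each mouse and Apoc4 in the other, r was 0.70 (permutation p = 0.0195, adjusted p = 0.879). With library totals in place of TMM factors 6 pairs passed, not 1.

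**Figure D4:**
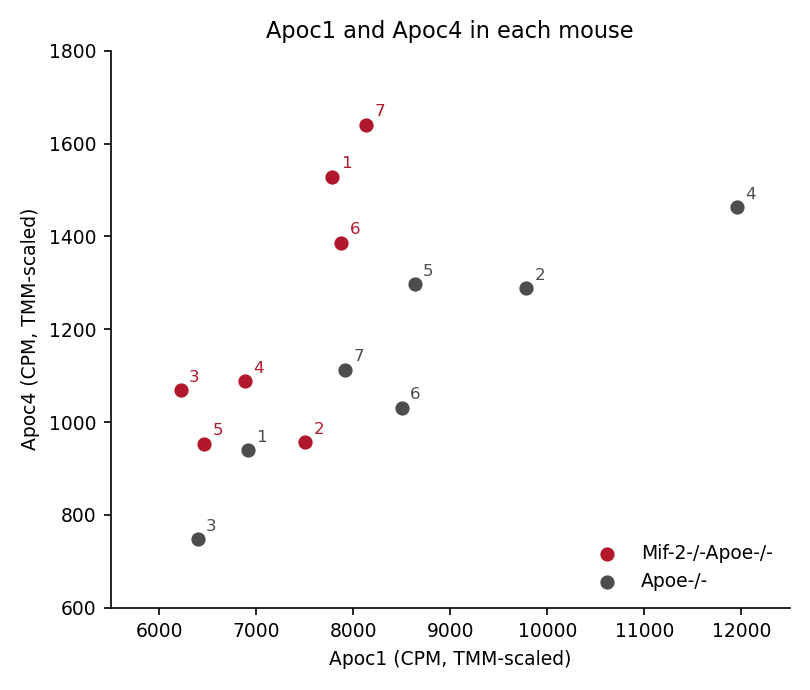
Apoc1 against Apoc4 in CPM scaled by TMM, 1 numbered point per mouse, for 7 Mif-2-/-Apoe-/- mice (red) and 7 Apoe-/- mice (grey); neither axis starts at 0. The points of each group climb together, and most red points lie above the grey ones at a given level of Apoc1.

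The pairs next in order each held Mttp or Apoc4. Mttp had r of 0.69 with Apoc4, 0.63 with Apob and 0.63 with Apoh, each with an unadjusted permutation p below 0.05 and an adjusted p of 0.247. Spearman's rho of these pairs was 0.59 (permutation p = 0.0391), 0.51 (permutation p = 0.0716) and 0.49 (permutation p = 0.0972), and r without the 2 mice farthest out was 0.58, 0.49 and 0.24, so that with Apoh rested on those mice. Apoc4 and Apoh reached 0.62, at the same adjusted p. The most negative pair was Apoc1 and Sort1, at -0.61 (permutation p = 0.0445, adjusted p = 0.286), which was 0.35 within double knockout mice and -0.94 within Apoe-/- mice, a difference that was not tested. Its rho was -0.47 (permutation p = 0.128), and without Apoe-/- mice 4 and 3 r was -0.12, so this pair rested on them. Apoe was not close to its chromosomal neighbours Apoc1 (-0.21), Apoc4 (-0.07) and Apoc2 (0.19).

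The members were also set against the share of CT010467.1, a measure of library makeup, in 10 relations over 14 mice, a comparison added after the data were seen. Tm6sf2 had r = -0.88 (permutation p = 0.0003, adjusted p = 0.003) and rho of -0.85 (permutation p = 0.00042, adjusted p = 0.0042). It was -0.93 in double knockout mice, -0.82 in Apoe-/- mice and -0.88 without the 2 mice farthest from the mean log2 share of their group. In the summed libraries, mice with less of this ribosomal RNA thus had more Tm6sf2 in both groups. Tm6sf2 was read at 10 to 97 counts per mouse, and its r between the 2 libraries of a mouse was 0.21. Its level in a mouse was thus poorly repeated. The relation was not tested in single libraries or over all genes. The other 9 members had adjusted permutation p of at least 0.308. With the share as a covariate the log2 fold change of Tm6sf2 was 0.07 (edgeR adjusted p = 0.902).

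**Figure D5:**
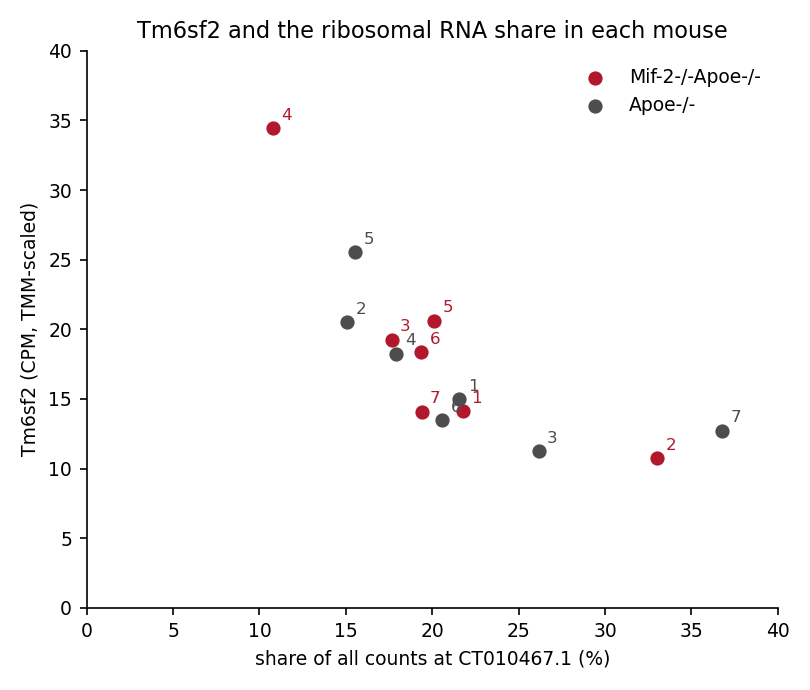
Tm6sf2 in CPM scaled by TMM against the percentage of all counts at CT010467.1, 1 numbered point per mouse, Mif-2-/-Apoe-/- (red) and Apoe-/- (grey). The points descend from double knockout mouse 4, at 34.5 CPM and 10.8%, to the mice with the largest shares.

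The genes whose profile was most like that of Apob or Lrp1 were then sought among 4455 genes with a mean of at least 20 CPM, as a description over 14 mice with no test. For Apob they were Ppp1r15b (r = 0.87), Pex5 (0.84) and Aldh1a1 (0.82), and without double knockout mouse 3 and Apoe-/- mouse 6 these values were 0.77, 0.75 and 0.54. For Lrp1 they were Itih3 (0.91), Saa1 (0.90) and Crp (0.89), at 0.84, 0.79 and 0.81 without double knockout mice 4 and 3. Itih3, Saa1 and Crp encode plasma proteins of the liver, of which serum amyloid A is the classic acute-phase protein of mice. Their own log2 fold changes were 0.96, 3.60 and 0.47, with edgeR adjusted p of 0.183, 0.0665 and 0.377.

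Around the members, 78 further genes of the pathway were read from 3 lists, and 73 were tested. Of these 0 were called, 5 had a positive and 1 a negative log2 fold change at an unadjusted p below 0.05, and the median was 0.07. That is 8.22% at the unadjusted threshold, against 12.9% of all genes. DESeq2 called 4 of the 50 that it gave an adjusted p (8%), Hspa5, Sdc4, Srebf1 and Xbp1, all with positive values, against 2.97% of all genes. With the gene filter of the study it called 93 of 5660 genes and, of the pathway genes, Hspa5 alone.

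Among 28 partners of assembly and secretion (chaperones, export coats and lipid suppliers), 25 were tested and 1 passed the unadjusted threshold. That was Hspa5, for the chaperone BiP, with 255, 358 and 590 CPM in double knockout mice, against 240, 258 and 288 CPM in Apoe-/- mice. In 6 of the 7 double knockout mice its level lay above every Apoe-/- mouse, at 0.52 in log2 (SE 0.16; edgeR adjusted p = 0.183). The neighbours in rank were Hsp90b1, another chaperone of the endoplasmic reticulum (0.28, edgeR adjusted p = 0.397), and Apobec1, whose enzyme edits Apob mRNA to yield the short form of the protein (-0.34, edgeR adjusted p = 0.429).

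Among 25 partners of remnant and LDL uptake, 24 were tested, with a median log2 fold change of 0.03, and 2 passed the unadjusted threshold. Sdc4, for a heparan sulphate proteoglycan, averaged 224 ± 28.8 CPM in double knockout mice and 170 ± 25.6 CPM in Apoe-/- mice, and 6 of 7 double knockout mice lay above every Apoe-/- mouse (log2 fold change 0.40, SE 0.14; edgeR adjusted p = 0.237). The other gene that passed is not reported here. Snx17, for a sorting nexin that recycles LRP1, did not pass, at 0.41 in log2 (edgeR unadjusted p = 0.0517, adjusted p = 0.389). It was read at 11 to 31 counts per double knockout mouse and 10 to 25 counts per Apoe-/- mouse. For Snx17 the SD of log2 CPM between the 2 single libraries of a mouse, 0.42, exceeded that between mice of a group, 0.29, from summed libraries.

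Of 25 transcriptional regulators, 24 were tested and 3 passed the unadjusted threshold. Srebf1, for the lipogenic factor SREBP-1, averaged 87.1 ± 30.2 CPM in double knockout mice and 49.7 ± 14.5 CPM in Apoe-/- mice, with 5 of 7 double knockout mice above every Apoe-/- mouse (log2 fold change 0.81, SE 0.23; edgeR adjusted p = 0.146). Srebf1 was called without double knockout mouse 2, at 0.95 and an edgeR adjusted p of 0.0286, a fit that called 118 genes over all genes, against 21. In every other fit that left out 1 mouse it was not called, at 0.71 to 0.90 and edgeR adjusted p of 0.104 to 0.301. Xbp1, for the factor of the unfolded protein response, had 0.58 in log2 (SE 0.17; edgeR adjusted p = 0.168). Ppara, for the regulator of fatty acid oxidation, averaged 117 ± 38.7 CPM in double knockout mice and 189 ± 62.4 CPM in Apoe-/- mice (-0.69, SE 0.22; edgeR adjusted p = 0.188). For Ppara 5 of the 7 mice without Mif-2 were under the Apoe-/- range.

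Of 13 genes beside the Apoe cluster on chromosome 7, 10 were tested, and their log2 fold changes were split 5 to 5 around a median of -0.02. Nectin2, for a cell adhesion protein, had 24.4, 29.1 and 33.4 CPM in double knockout mice, against 33.7, 41.3 and 48.1 CPM in Apoe-/- mice. The groups did not overlap, as for 0.279% of all genes, and its log2 fold change of -0.50 (SE 0.13; edgeR adjusted p = 0.124) was not called. Nectin2 was read at 31 to 81 counts per double knockout mouse and 53 to 113 counts per Apoe-/- mouse. Its SD of log2 CPM between the 2 single libraries of a mouse, 0.39, exceeded that between mice of a group, 0.15, from summed libraries. Tomm40, for a pore of the mitochondrial outer membrane, had 0.36 in log2 (edgeR adjusted p = 0.324) and Gemin7 -0.31 (edgeR adjusted p = 0.546). The flanks of Apoe thus held values of both signs, as the 4 apolipoprotein genes between them did.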

How the data were processed

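Liver RNA of 14 female mice was read by prime-seq in 28 libraries, 2 per mouse. The authors made the values with the zUMIs pipeline on build mm10 (per the labels and the methods of the study), and deposited them as whole-number counts per gene symbol, with no normalization. Aligner settings, strand use and the treatment of intronic reads are not given in the sources used here. The model of the study held RNA integrity as a covariate, which the labels do not give.

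The 2 libraries of a mouse were summed. Genes were kept by filterByExpr, scaled by TMM and tested by the quasi-likelihood F test of edgeR 4.0.16 (R 4.3.3), two-sided, with Benjamini-Hochberg adjustment over 9684 genes, and a call is an adjusted p below 0.05. CPM use TMM-scaled library sizes, except the marker sums, which use total counts. Correlations used log2 CPM with a prior count of 2, centred in each group, with 100000 permutations within groups (numpy 2.4.6, scipy 1.17.1). The fit was tested on simulated data. DESeq2 1.42.0, other scalings and filters, single libraries and leaving out each mouse were alternatives. Library totals were 541651 to 1531192.

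Members and gene lists were chosen with earlier results of these data known. Named genes are all 10 members, Ddt, the 3 genes of smallest p in each pathway or locus list, and the 3 genes most like Apob and Lrp1. Of these, 1 gene is not reported here. CT010467.1 and skeletal muscle markers were singled out after their values were seen. Positions are from GENCODE M21 (mm10) and promoters from RefSeq (GRCm38.p6). Mice are taken as replicates. The p-values of edgeR set the group difference against the variation between mice, and those of the correlations come from permuting mice within groups.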

Additional observations from a re-analysis of the deposited data

Results flagged for a closer look

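Among 46 groups of 7 mice checked (23 named genes in both genotypes), 4 values stood apart from the other 6 mice of their group by more than the 95% limit of Dixon's test, which chance alone passes in about 1 of 20 groups. Apob was at 1004 CPM in double knockout mouse 3, where the next lowest double knockout mouse had 1305 CPM. That mouse is also the one with skeletal muscle transcripts, and their part in the low Apob value was not tested. Mttp was at 87.2 CPM in Apoe-/- mouse 3, where the next lowest Apoe-/- mouse had 111 CPM. Tm6sf2 was at 34.5 CPM in double knockout mouse 4, where the next highest double knockout mouse had 20.6 CPM, and that mouse had the smallest CT010467.1 share of all 14, 10.8%. Hsp90b1 was at 928 CPM in the same mouse, where the next highest double knockout mouse had 699 CPM.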

How the results depend on the processing

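The 10 members had 0 calls in every alternative that was run. Of their 237 fold changes under 24 alternatives (Apoc1 was outside the gene filter of the study, and Sort1 outside that of the first library alone) 231 kept their sign, and the lowest adjusted p of any member was 0.217 (Apoe, without double knockout mouse 2). The other 6 turned sign near 0: Apob to -0.076 and Mttp to -0.043 with library totals, Apob to -0.015 in the first library alone, Tm6sf2 and Apoc2 in single fits that left out 1 mouse, over which Tm6sf2 ranged from -0.050 to 0.33 and Apoc2 from -0.21 to 0.022. The number of genes called over all genes, 21, was 344 with no gene filter, 116 with DESeq2, 93 with DESeq2 and the gene filter of the study, 11 in the first library alone, and 7 to 118 without 1 mouse, where 118 came without double knockout mouse 2. Pathway genes called, 0 in the reported fit, were 3 with no gene filter, 4 with DESeq2, 1 with DESeq2 and the filter of the study (Hspa5) and 0 to 1 without 1 mouse. Nectin2 was also called with DESeq2 (-0.47) and without double knockout mouse 2 (-0.52). With the replicate number as a block, 14 genes and 0 members were called, and same-numbered mice correlated at -0.43 to 0.15. The labels do not say whether the numbers pair the mice, and these correlations cannot settle it, as mice of unlike number were not compared. Counts of 8 to 37 per mouse limit Sort1 and Apoc2, and 4 of the 10 intervals of the members reached past 1.5-fold.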

Other observations

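The ratio of Apoc1 to Apoc4 counts, which needs no scaling between libraries and was computed after the opposite signs of their fold changes had been seen, was 6.07 ± 1.01 in double knockout mice and 7.67 ± 0.683 in Apoe-/- mice (SD, n = 7 each). It spanned 4.96 to 7.84 in double knockout mice and 6.65 to 8.55 in Apoe-/- mice. In 5 of 7 double knockout mice the ratio lay below every Apoe-/- mouse. As it was chosen on these values it was given no test.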
